A study of Homo sapiens with 4 samples.

Results

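In control FaDu cells, 6403 regions of RNA were enriched by the antibody against N4-acetylcytidine (ac4C), and they were listed under 4977 gene identifiers. They are all rows of the peak list called from the ac4C immunoprecipitation (IP) of shNC cells against the input RNA of the same cells, out of 15627 peak rows deposited for the series. FaDu is an established human cell line from a squamous cell carcinoma of the hypopharynx. The control short hairpin RNA is shNC, which the study used beside hairpins against NAT10. The cells with a hairpin against NAT10 were not used here. The RNA was broken into short fragments before the IP; the study's text names total RNA in its methods and mRNA elsewhere. With 1 IP library and 1 input library there were no replicates, and differences are given without a test. The number of reads in either library is unknown, because the list holds peaks and not counts. Intervals are 95% intervals (Wilson for shares, order statistics for medians) and cover the sampling of peaks or genes, not the error of the libraries.

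ac4C is an acetyl group on the base of cytidine in RNA. NAT10 is the acetyltransferase that writes it in human cells, on 18S ribosomal RNA and transfer RNA with the help of a guide RNA or the adaptor THUMPD1, and in messenger RNA, where the mark has been linked to transcript stability and translation. In acRIP-seq, a peak is a stretch of transcript with more IP than input reads. Its fold enrichment is the ratio of IP to input as the authors deposited it, which measures neither the amount of the transcript nor the share of molecules that carry the mark, and a gene without a peak may simply be too low in the libraries.

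Cytidines of ac4C sites have been described in repeats of a C and any other bases, so the bases that the RefSeq tables (GRCh38.p14) hold for these regions are shown first. The tables give the first 50 transcribed bases of 35116 genes, and in 28 genes this whole window lay inside a block of a peak on the same strand. The motif CNNCNNCNNCNN, read on the transcribed strand only, occurred in 9 of the 28 windows (32.1%, 17.9 to 50.7), and in 25.7% of all 35116 windows. The median share of C was 28% in both sets. The windows of ADIRF, a gene named for adipogenesis, of the ribosomal protein genes RPLP1 and RPS28, of PPIA (cyclophilin A) and of TMSB10 (thymosin beta 10, an actin-binding peptide) are shown around the first match, which is in capitals.

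ADIRF, chr10:86968496-86968525, plus strand: ccaacgtcgCTCCAGCTGCTCttgacgact

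RPLP1, chr15:69452818-69452847, plus strand: cccctttCCTCAGCTGCCGccaaggtgctc

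RPS28, chr19:8321496-8321525, plus strand: actCCTCTCCGCCAGaccgccgccgcgccg

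PPIA, chr7:44796682-44796711, plus strand: ttttgcagaCGCCACCGCCGAggaaaaccg

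TMSB10, chr2:84905656-84905685, plus strand: gtttcttgCTGCAGCAACGCgagtgggagc

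The peaks over these starts had fold enrichments of 94.6 in ADIRF, 25.3 in RPLP1, 19.3 in RPS28, 8.11 in PPIA and 6.93 in TMSB10. The ADIRF window held 1 match and the RPS28 window 5, so the number of matches did not order these peaks. The ADIRF peak also overlapped 2 peaks of ADIRF-AS1 on the opposite strand, with 66.8 and 86.1, and its reads cannot be told apart from theirs.

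On the chromosomes searched, peaks of 7 genes also covered the mature sequences of 10 microRNAs. Others may be missing from this count. Of the 10, the 3 from H19 and from the host with the highest peak among the 7 are shown. Their seed (bases 2 to 8) is in capitals. H19, a long non-coding RNA of the imprinted locus beside IGF2, hosts miR-675, and both arms lay in an H19 peak of 179 nt with a fold enrichment of 8.98. PTMA (prothymosin alpha) had a peak of 51.6 over hsa-miR-1244. Other hosts were PSME2 (21.2), B2M (15.2), FXYD3 (8.95) and NPC2 (4.14). No 2 of the 10 microRNAs shared a seed.

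hsa-miR-675-5p, chr11:1996800-1996822, minus strand: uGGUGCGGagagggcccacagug

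hsa-miR-675-3p, chr11:1996768-1996787, minus strand: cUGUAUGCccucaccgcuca

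hsa-miR-1244, chr2:231713368-231713393, plus strand: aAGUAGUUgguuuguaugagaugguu

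The median fold enrichment of the 6403 peaks was 12.4 (12 to 12.4), with quartiles of 6.91 and 23.8 and a range from 1.35 in RPL13 to 342 in DEFB1. A fold enrichment of at least 10 was reached by 3809 peaks, which is 59.5% of the list and the background for the counts of gene lists below. At least 50 was reached by 520 peaks, at least 100 by 123 and at least 200 by 17. The FDR was above 0.05 in 520 peaks (8.12%), although the largest p-value was 0.0457. Most peaks thus lay well above input, and few stood near the top.

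The 10 highest peaks were spread over genes of unlike function. DEFB1, which encodes the epithelial antimicrobial peptide beta-defensin 1, led with 342. RPP25, a protein subunit of RNase P and RNase MRP, followed with 297 on chr15:74955312-74955761. ID1, an inhibitor of basic helix-loop-helix transcription factors, had 263 over 998 nt on chr20:31605518-31606515. PLEC, which encodes the cytolinker plectin that ties keratin filaments to hemidesmosomes, had 254, and POMGNT1, a glycosyltransferase of O-mannosyl glycans, had 253. PABPC1, the cytoplasmic poly(A)-binding protein, had 239 in a peak of 3 blocks. RPL39 and RNF144B both had 231, TIMM17A of the mitochondrial inner membrane translocase had 229 and RPS3A had 227. The list of the highest peaks thus held an antimicrobial peptide, RNA-binding proteins, ribosomal proteins and a cytolinker side by side.

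The order by p-value was not the order by fold enrichment. FTH1, the ferritin heavy chain, had the smallest p-value listed as a number on a nuclear gene, with a log10 of -18600 at a fold enrichment of 43.3. ACTB followed with -10900 at 37.9, RPS4X with -9420 at 65.1 and TMSB10 with -7740 at 6.93. An unnamed gene on the other strand of FTH1 (ENSG00000167995) had -18400 at 42.7, and its peak lay over the same bases. The rank correlation of fold enrichment with exonic length was 0.52 over the 6403 peaks, and that of log10 p-value with length was -0.78. The p-value was listed as 0 for 43 peaks, whose fold enrichments ran from 34.8 to 263, among them ID1 and METRN (213).

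**Figure D1:**
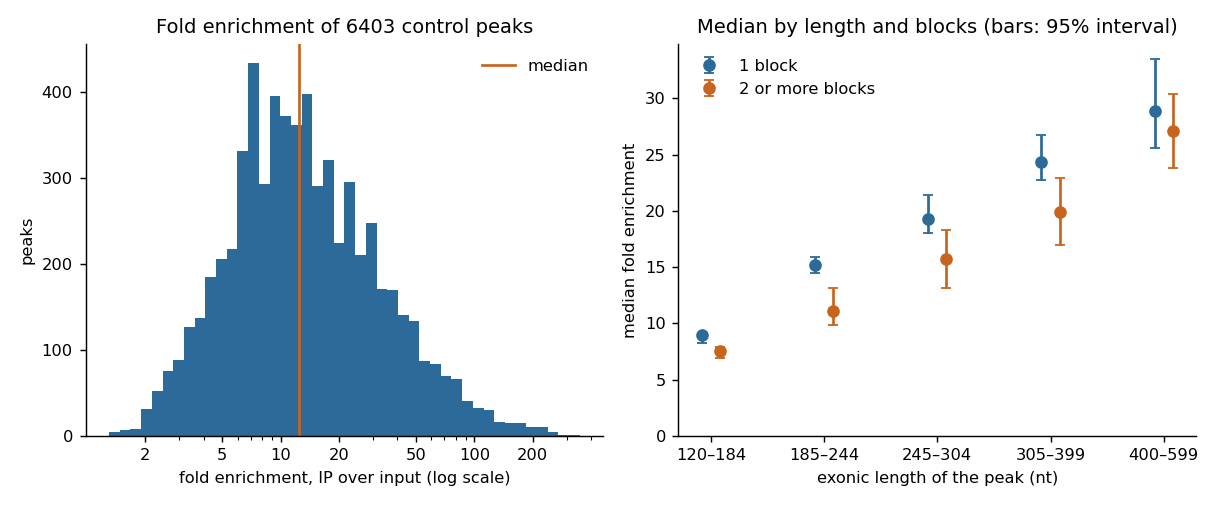
Left, number of the 6403 control peaks by fold enrichment of IP over input on a log scale, with the median of 12.4 as a line. Right, median fold enrichment by exonic length of the peak, for peaks with 1 block and with 2 or more blocks, with 95% intervals; in each of the 5 length classes the peaks with 2 or more blocks had the lower median.

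The exonic length of a peak, which is the sum of its blocks, had a median of 210 nt and ran from 113 to 1559 nt. It lay within 1 nt of a multiple of 30 in 5575 peaks (87.1%), so lengths came in steps. Longer peaks had higher ratios. The median fold enrichment was 7.6 (6.91 to 7.6) in the 1304 peaks of up to 151 nt and 34.95 (30.4 to 37.9) in the 374 peaks of at least 501 nt. In these 2 classes, 29.8% and 90.1% of the peaks reached a fold enrichment of 10. The longest peak was that of the mitochondrial 16S ribosomal RNA gene MT-RNR2, with 1559 nt, followed by CTSB (cathepsin B) with 1229 nt, H19 with 1220 nt and PTMS (parathymosin) with 1181 nt. The fifth, with 1170 nt, was the unnamed ENSG00000160932.

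A block is an exonic piece, so a peak of 2 or more blocks runs over a splice junction. There were 4820 peaks with 1 block (75.3%), 1121 with 2, 358 with 3, 73 with 4 and 31 with 5 or more. The 1583 peaks with 2 or more blocks (24.7%, 23.7 to 25.8) had a median fold enrichment of 13.1 (12.3 to 13.8), against 12.2 (11.7 to 12.4) for peaks with 1 block. They were also longer, with a median of 241 nt against 190 nt. Compared at like length, the order turned. Between 185 and 244 nt, the median was 11.1 (9.82 to 13.1) with 2 or more blocks and 15.2 (14.5 to 15.9) with 1 block, and in the other 4 length classes it was lower with 2 or more blocks as well. Among the 3031 peaks with an FDR of at most 1e-10, the median with 2 or more blocks minus that with 1 block was -2.7.

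TNNT1, the slow skeletal troponin T, had the peak with the most blocks, 10 blocks of 982 nt in all with a fold enrichment of 55.5. CALB2 (calretinin) had 9 blocks and 170, ATP5F1C of the mitochondrial ATP synthase had 8 blocks and 35.2, and the helicase gene RECQL4 had 7 blocks and 62.2. The readthrough gene NME1-NME2 had 7 blocks and 39.7, and the translation initiation factor EIF5B had 7 blocks and 21.9. The NME1-NME2 peak overlapped peaks of NME1 and NME2 on the same strand, the highest with 38.6, and its reads cannot be told apart from theirs. In CALB2 the 9 blocks summed to 479 nt, so each piece was short.

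Fold enrichments were not continuous in the lower range. There were 2861 peaks (44.7%) whose pair of fold enrichment and p-value was exactly that of another peak. The most frequent pair, 6.22 with a p-value of 0.041, stood in 98 peaks. The 19 pairs held by at least 30 peaks each ran from 6.22 to 19.3 in gaps of 0.6 to 1.3 and took in 1219 peaks (19%). Peaks with a pair of their own had a median fold enrichment of 14.2 (13.7 to 14.8) and a median length of 270 nt, and those that shared theirs had 11.1 and 180 nt. TP63, LAMC1 and COL12A1, with 8.98, 15.9 and 19.3, held such pairs, and small differences among values of this kind are not read as an order here. What sets the steps was not tested.

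Of the 4977 genes, 3862 (77.6%) had 1 peak and 1115 (22.4%, 21.3 to 23.6) had 2 or more. There were 240 genes with 3 or more. RAPGEF3, which encodes the cAMP-activated exchange factor EPAC1, had 7 peaks. They were 117, 51.1, 31.1, 9.67, 39.4, 8.98 and 9.67 from the 3′ to the 5′ end, so the most 3′ one was the highest. KRT7, the type II keratin of simple epithelia, had 6 peaks, with 18 and 10.4 in a pair that overlapped near the 5′ end and then 72.5, 180, 95.2 and 87.3 toward the 3′ end.

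There were 11 genes with 5 peaks. Among them were the ribosomal protein genes RPL13A, RPL3 and RPL13, the histone chaperone NAP1L1, PPIA, IGF2 (insulin-like growth factor 2), TIMP3 (an inhibitor of metalloproteinases) and NOP53 (a ribosome assembly factor). RPL13A had 6.21, 2.29, 12.1, 18.1 and 55.6 from the 5′ to the 3′ end. RPL3, on the minus strand, ran in the same sense, from 1.93 at the 5′ side through 5.12, 12.9 and 29.4 to 53.2 at the 3′ end. IGF2 had 51.8 at its 3′ end and 31.1 in the peak farthest from it, with 11.1, 9.67 and 20.7 between them. PPIA was highest in the peak before its last, with 8.11, 9.32, 5.67, 45.8 and 20.7 from the 5′ end. RPL13 had 1.35, 3.87, 15.5, 28.3 and 19.5 in the same sense. The most 3′ peak was the highest in RPL13A, RPL3, IGF2 and NOP53, and it was not in PPIA, RPL13, NAP1L1 and TIMP3.

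Peaks of 1 gene were often unlike. The ratio of the highest to the lowest fold enrichment within a gene had a median of 2.88 over the 1115 genes and was at least 2 in 726 (65.1%). It was largest in LAMA5, the laminin alpha 5 chain of basement membranes, whose 4 peaks ran from 2.23 to 191, the lowest of them beyond the 3′ end of the RefSeq span. HSPB1, the small heat shock protein HSP27, had 3.24 and 224, the histone variant gene H2AZ1 had 2.36 and 143, PLEC ran from 4.49 to 254, and RANBP1 had 3.68 and 167. In the 875 genes with 2 peaks, the 3′ one was the higher in 567 (64.8%, 61.6 to 67.9).

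Of the 6403 peaks, 5533 could be placed within the span of a protein-coding nuclear gene of the RefSeq table. Their middles gathered at the 3′ end. The last 20% of the gene span held 4209 peaks (76.1%, 74.9 to 77.2), the last 10% alone held 63.4%, and the first 20% held 168 (3.04%, 2.62 to 3.52). Within 1000 nt of the 3′ end there were 2974 (53.8%), and within 500 nt of the 5′ end 66 (1.19%). The span includes introns, and the share in its last 20% differed with gene size. It was 54.6% (51.0 to 58.2) in genes of up to 5000 nt and 86.3% (84.3 to 88.1) in genes of over 50000 nt, although in the latter only 44.5% (41.8 to 47.2) of the peaks lay within 1000 nt of the 3′ end.

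Peaks near the 3′ end were also somewhat higher. The median fold enrichment was 14.8 (14.1 to 15.9) at 200 to 500 nt from the end and 10.7 (9.9 to 11.6) beyond 5000 nt. In the first 10% of the span it was 8.52 (6.91 to 11.7), from 81 peaks, and in the last 10% it was 13.1 (12.4 to 13.8), from 3506. Peaks with 2 or more blocks made up 13.9% of the last 10% of the span and 35.8% of the first 10%.

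**Figure D2:**
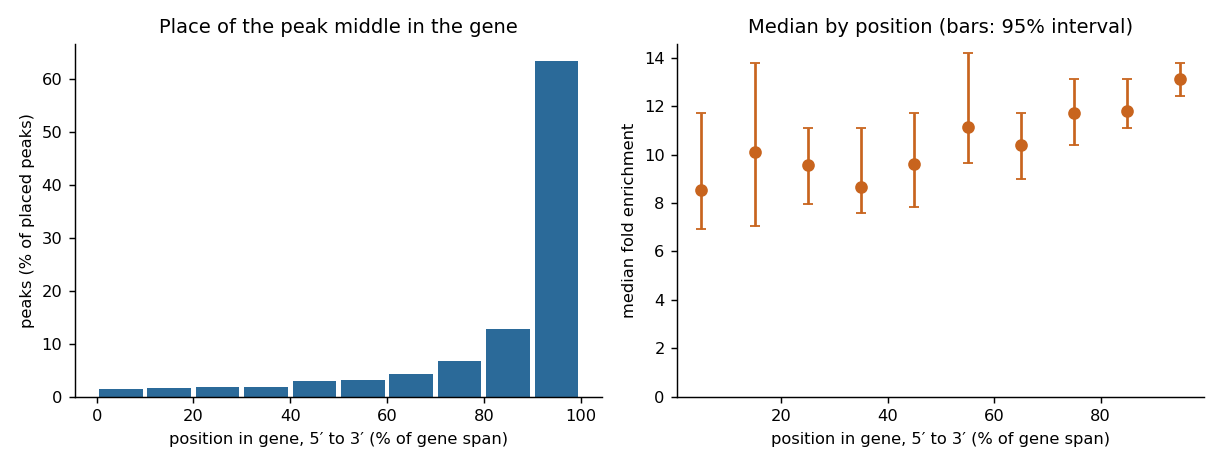
Left, share of the 5533 placed peaks by position of the peak middle in the gene, from the 5′ end (0%) to the 3′ end (100%) of the RefSeq gene span. Right, median fold enrichment in each step of 10% of the span with its 95% interval; 63.4% of the peaks stood in the last step, where the median was 13.1.

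The exceptions at the 5′ end were few but not all weak. KRT19 had a peak of 82.9 over 450 nt within 500 nt of its 5′ end, next to 159 at its 3′ end. The translation machinery gene TMA7 had 40.4, where the unnamed ENSG00000244380 had 39.9 on the opposite strand. STAG2, a cohesin subunit, had 36.6 and JARID2, a cofactor of Polycomb complexes, had 28.3, both in genes so long that these peaks stood in the first 0.11% of the span. MRPL53 and SF3B5, with 35 and 27.1, are so short that their peaks lay near both ends.

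By chromosome, the number of peaks followed the number of genes, with a rank correlation of 0.89 over 23 chromosomes. Chromosome 19 had the most peaks, 659 (10.3%, 9.57 to 11.1), ahead of chromosome 1 with 608 and chromosome 17 with 486. A named peak was found in 4233 of 20052 protein-coding genes (21.1%). That share was 29.6% (26.7 to 32.8) on chromosome 16, 28.3% (26.1 to 30.7) on chromosome 19, 26.3% on chromosome 17 and 25.9% on chromosome 22. It was 14.2% (11.9 to 16.8) on chromosome 4, 14.4% on the X chromosome and 15.7% on chromosome 13. The intervals of chromosomes 16 and 19 overlapped each other and lay above that of chromosome 1 (20.4%, 18.7 to 22.2).

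Fold enrichment varied less between chromosomes than the share of genes did. The median ran from 9.67 (8.29 to 15.2) on chromosome 13 to 14.55 (11.1 to 17.3) on chromosome 21, and these 2 intervals overlapped. Chromosome 19 had 12.5 (11.6 to 13.8), close to the list as a whole, but 33.7% of its peaks had 2 or more blocks. Each of the 23 chromosomes had at least 1 peak of 104 or more. Beside the genes named above, the tops included METRN (213) on chromosome 16, TMC6 (221) on chromosome 17, TMEM160 (220) on chromosome 19, BRK1 of the WAVE actin complex (219) on chromosome 3 and PSMG1, a proteasome assembly chaperone (224), on chromosome 21. Lower tops were C9orf78 (104) on chromosome 9, ERH (106) on chromosome 14, MRPS5 (113) on chromosome 2, CXXC1 (121) on chromosome 18 and COMMD6 (129) on chromosome 13. PTTG1 (securin, 140) led chromosome 5, RANBP1 (167) chromosome 22, PRPF19 of the spliceosome (186) chromosome 11, and EIF5AL1 (199) chromosome 10.

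**Figure D3:**
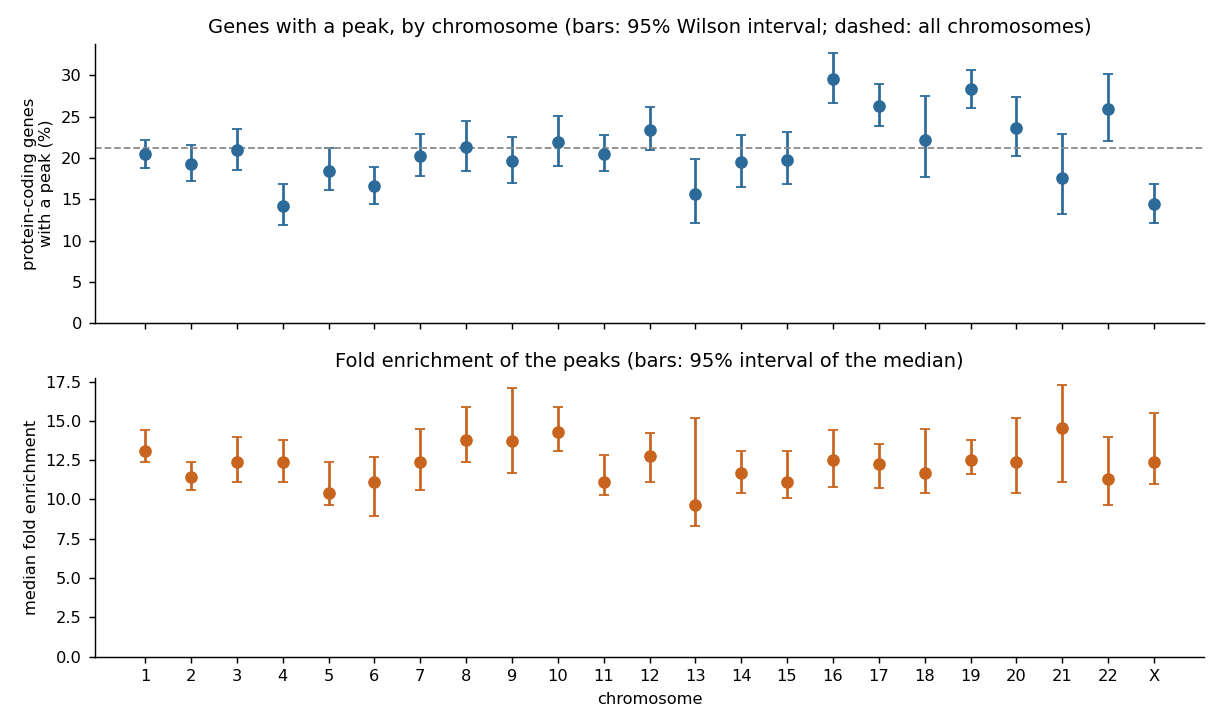
Top, share of RefSeq protein-coding genes with a named peak on each chromosome with 95% Wilson intervals, and 21.1% over all as a dashed line; chromosomes 16 and 19 stand highest and chromosome 4 lowest. Bottom, median fold enrichment of the peaks on each chromosome with 95% intervals, which overlap widely.

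The plus strand carried 3531 peaks (55.1%, 53.9 to 56.4) and the minus strand 2872. Among protein-coding genes with a known strand, 51.0% were on the plus strand, and a named peak was found in 23.5% (22.6 to 24.5) of the plus-strand genes and 20.8% (19.9 to 21.7) of the minus-strand genes. The median fold enrichment was 11.7 (11.5 to 12.4) on the plus and 12.8 (12.4 to 13.1) on the minus strand.

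Some peaks lay over the same bases on both strands. Peaks of 2 genes on opposite strands overlapped in 346 pairs, which involved 643 peaks (10.0%). In 208 pairs the overlap was at least 90% of the shorter peak, and in 133 of these (63.9%) the fold enrichments were within 10% of each other. Among these, FTH1 and ENSG00000167995 had 43.3 and 42.7, and TAGLN (transgelin) and ENSG00000160613 both had 135. The zinc finger gene ZNF32 had 194 and its antisense gene ZNF32-AS1 had 193, at a smaller overlap of 78.8% of the shorter peak. Whether the libraries and the peak caller kept strand is not given in the sources used here, and in such pairs the reads of one gene cannot be told apart from those of the other. On the same strand, 244 pairs and 383 peaks overlapped, such as EIF4A1 (26.1) and AC016876.2 (29.1).

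**Figure D4:**
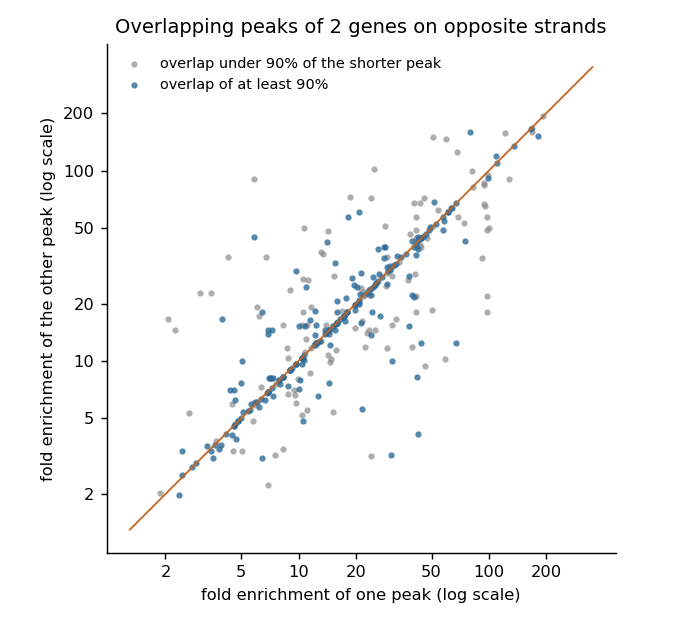
Fold enrichment of the 2 peaks in each of the 346 pairs that overlap on opposite strands, on log axes, with the line of equal values. Blue points overlap over at least 90% of the shorter peak, and 133 of these 208 pairs lie within 10% of equality.

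Protein-coding genes held 5549 peaks (86.7%), long non-coding RNA genes 120, pseudogenes 59, and 672 had no RefSeq class. The median fold enrichment was 12.4 (11.9 to 12.6) for protein-coding genes and 14.85 (12.4 to 17.5) for long non-coding RNA genes. However, 49 of the 120 long non-coding peaks (40.8%) overlapped a peak of another gene, and without them the median was 11.1 (8.98 to 15.2). GAS5, a host of small nucleolar RNAs, had 109 and H19 had 73.6, and neither overlapped another peak. ZNF32-AS1 (193), KRT7-AS (98.8) and ADIRF-AS1 (86.1) each overlapped a peak on the opposite strand. Among pseudogenes, RPS28P7 had 121 and TECRP1 had 82.5; their reads may be shared with the parent genes.

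Genes of the ribosome were the most completely covered list. Of 87 genes of cytosolic ribosomal proteins, 79 (90.8%, 82.9 to 95.3) had a named peak, against 21.1% of all protein-coding genes. These were 47 of 53 large-subunit and 32 of 34 small-subunit genes. Their 185 peaks had a median fold enrichment of 13.6 (10.3 to 17.8), 110 (59.5%) reached 10, and 44.9% had 2 or more blocks. Not counted were 2 large-subunit genes with only a peak of another label in their span. Levels within the list ran from 1.35 in RPL13 to 231 in RPL39, which was followed by RPS3A (227), RPL22L1 (194), RPS20 (147) and RPS25 (102). RPS3A had a second peak of 10.5 and RPS20 had others down to 4.53. Over all 6403 peaks, 24.7% had 2 or more blocks and the median length was 210 nt, against 270 nt in this list. These transcripts are among the most abundant of any cell, and the part of abundance in this count was not tested.

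Mitochondrial ribosomal protein genes, which are encoded in the nucleus, had a peak in 57 of 77 (74.0%, 63.3 to 82.5). The median fold enrichment was 13 (10 to 15.9) over 63 peaks, 40 of which (63.5%) reached 10. It was 14.3 (12.1 to 17.8) for the large and 8.5 (5.9 to 16.8) for the small subunit, and these intervals overlapped. MRPL23 (115), MRPS5 (113) and MRPL18 (88.4) were highest.

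Transcripts of the mitochondrial genome itself had 16 peaks in 14 genes. Their median fold enrichment was 9.15 (4.04 to 17.8) and 7 of 16 (43.8%) reached 10, whereas their median length was 432.5 nt (269 to 625) against 210 nt for nuclear peaks. The highest was COX3 (cytochrome c oxidase subunit III) with 34.7 and the smallest p-value listed as a number (log10 of -21900). ND3 of complex I had 28.4. The 12S ribosomal RNA gene MT-RNR1 had 20.2 and 4.57 in its 2 peaks, and MT-RNR2 had 17.8.

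The remaining mitochondrial genes were lower. MT-CYB had 10.7, MT-CO2 had 10.4, MT-CO1 had 10.2, MT-ATP6 had 8.86 and MT-ND4 had 6.05. MT-ND5 had 9.44 and 1.4, MT-ND6, the one mitochondrial peak listed on the minus strand, had 5.2, MT-ATP8 had 4.04, MT-ND1 had 3.5 and MT-ND2 had 2.25. The mitochondrial peaks thus combined long blocks and extreme p-values with moderate ratios.

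Histone genes divided by kind. None of the 69 genes of the replication-dependent histone clusters, whose messenger RNAs end in a stem-loop in place of a poly(A) tail, had a named peak, which allows a share of up to 5.27% (Wilson), and no other peak lay over them on their strand. Of the 24 other histone genes, 9 (37.5%, 21.2 to 57.3) had a peak, beside 21.1% of protein-coding genes. Their 14 peaks had a median of 21.2 (5.46 to 64.7). H2AZ1 had 143 and 2.36, the linker histone gene H1-10 had 64.7, and H2AX had 37.1 and 33.8 in a pair that overlapped. MACROH2A2 had 28.3, H3-3B had 27.9, MACROH2A1 had 9.16, H3-3A had 7.49 and H2AZ2 had 3.87. Whether poly(A) RNA was selected is not stated in the sources used here, and its part in this count was not tested.

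Of 55 keratin genes, 6 (10.9%, 5.10 to 21.8) had a peak, and the interval held the 21.1% of all protein-coding genes. Their 21 peaks had a median fold enrichment of 65.5 (9.89 to 95.2), an interval that held the 12.4 of the whole list, and 15 (71.4%) reached 10. All 3 peaks of KRT13, a keratin of stratified mucosa, stood between 157 and 168. KRT7 reached 180, KRT19 159, KRT15 83.2, KRT8 65.5 and KRT18 40.1. KRT8 and KRT18, the partners of simple epithelial filaments, also had low peaks of 3.07 and 7.19. So had KRT15, with 3.95 and 3.44, and KRT19, with 3.63. The KRT13 peak at the 3′ end overlapped a peak of AC019349.1 on the other strand with the same value of 168.

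The squamous identity of FaDu was looked for in 12 marker genes, of which 4 (33.3%, 13.8 to 60.9) had a peak. That interval held the 21.1% of all protein-coding genes. SFN, the epithelial 14-3-3 sigma, had 37 and 9.59, DSP (desmoplakin) 12.4, CDH1 (E-cadherin) 9.09 and TP63, the transcription factor of squamous basal cells, 8.98 with an FDR of 0.055. The defining keratins KRT5, KRT6A, KRT14 and KRT17 had no named peak, nor had EPCAM, PERP and PKP1. Of 7 fibroblast markers, COL1A1 had peaks of 16.6 and 9.67, and of 5 leukocyte markers none had a peak. A peak list does not give transcript levels, so the label could not be checked further.

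Genes of adhesion and the basement membrane were mixed. In the desmosome and adherens junction list, 8 of 18 genes (44.4%, 24.6 to 66.3) had a named peak, beside 21.1% of protein-coding genes. Their 10 peaks had a median of 14.85 (8.79 to 47), and 7 (70%) reached 10, beside 59.5% of all peaks. Not counted were a peak of the unnamed ENSG00000046604 in the span of DSG2 and a TMX2-CTNND1 peak in that of CTNND1. PKP3 (plakophilin 3) had 54.6 and 13.1, CTNNB1 (beta-catenin) had 47, CTNNA1 had 26.6, and PKP4 had 23.5 and 16.6. JUP (plakoglobin) had 8.79 over 749 nt and CDH3 (P-cadherin) had 2.74. Among integrin, laminin and collagen genes, 13 of 82 (15.9%, 9.51 to 25.3) had a peak and the median was 12.4 (6.56 to 19.3). LAMA5 (191), ITGB1 (93.2), LAMB2 (77.9) and LAMB1 (63.5) were well above the others, of which COL12A1 had 19.3 and ITGA3 1.79 and 1.43.

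**Figure D5:**
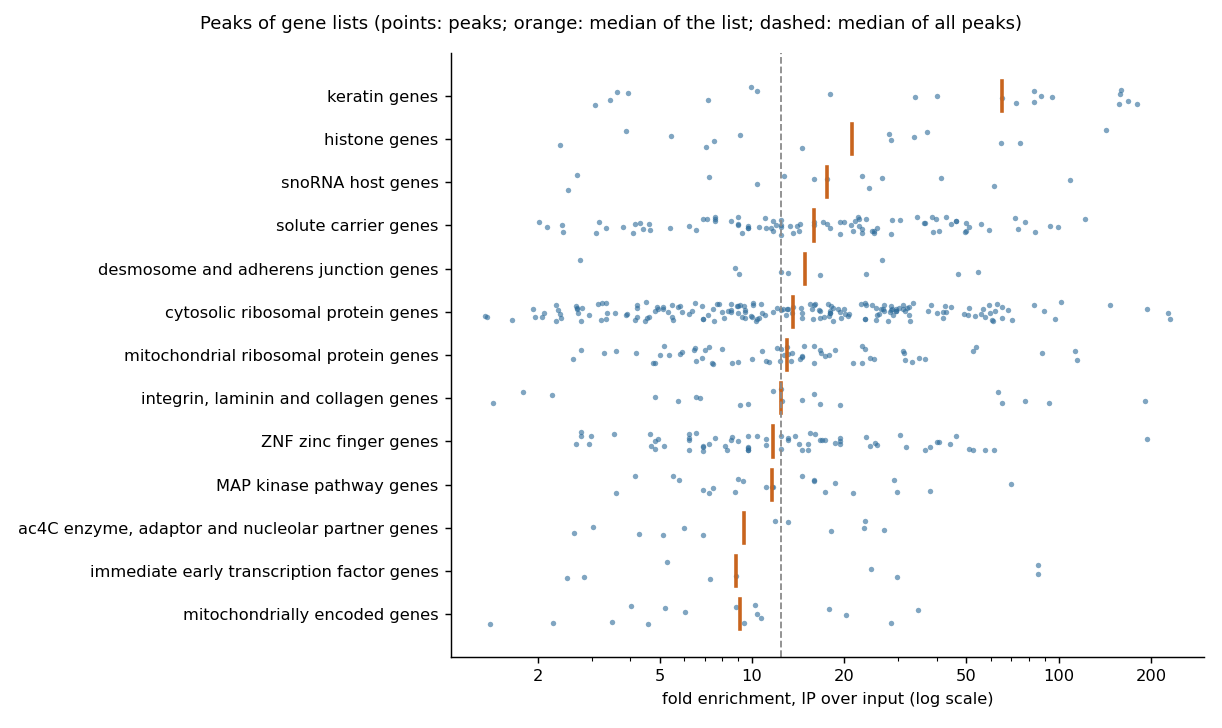
Fold enrichment of every peak of 13 gene lists on a log scale, with the median of each list in orange and that of all 6403 peaks (12.4) as a dashed line. Keratin genes have the highest median (65.5), and the lists spread over most of the range of the whole.

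Solute carrier genes had a peak in 71 of 379 (18.7%, 15.1 to 23), with an interval that held the 21.1% of all protein-coding genes, and the 94 peaks had a median of 15.9 (12.4 to 21.7), with 64 (68.1%) reaching 10. SLC48A1, a heme transporter, had 4 peaks from 3.09 to 122. SLC39A1, a zinc importer, reached 99.8, and SLC25A6, an ADP/ATP carrier of the mitochondrion, had 93.6. SLC7A5, the large neutral amino acid transporter, had 3 peaks from 2.02 to 72. ZNF zinc finger genes were rarer, with 61 of 509 (12%, 9.44 to 15.1), and their 70 peaks had a median of 11.75 (8.98 to 15.2), of which 38 (54.3%) reached 10. Only 4 of these 70 peaks had 2 or more blocks. After ZNF32 (194), the highest were ZNF511 (61.5) and ZNF414 (57.3).

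Host genes of small nucleolar RNAs had a peak in 11 of 30 (36.7%, 21.9 to 54.5), with a median of 17.5 (7.25 to 41.4) over 13 peaks. The share over protein-coding genes was 21.1%. It is not a like background here, because GAS5 and SNHG19 of this list are long non-coding RNA genes. GAS5 had 109, SNHG19 had 61.5 and SNHG17 had 41.4. Immediate early transcription factor genes had a peak in 6 of 14 (42.9%, 21.4 to 67.4), beside the same 21.1%, with 9 peaks and a median of 8.87 (2.83 to 85.5). JUND reached 85.9 and IER2 85.5, but JUND also had peaks of 8.87 and 7.3 and IER2 one of 2.5. FOSL2 had 29.7 and EGR1 24.4, and JUNB (5.27) and IER5 (2.83) were low. FOS, FOSB, FOSL1, JUN and ATF3 had no named peak.

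The enzyme that writes the mark had a peak of its own. NAT10 had a fold enrichment of 6.91 over 151 nt on chr11:34146720-34146870, 113 nt from its 3′ end, a value that 10 peaks of the list shared together with its p-value. The list of NAT10, its adaptor and nucleolar partners held 17 genes. Of these, 8 (47.1%, 26.2 to 69.0) had a peak, beside 21.1% of protein-coding genes. Their 12 peaks had a median of 9.4 (4.28 to 23.2), and 6 (50%) reached 10, beside 59.5% of all peaks. UTP20 of the small-subunit processome had 26.9, FBL (fibrillarin, the methyltransferase of box C/D particles) had 23.3 in 5 blocks, and DKC1 (dyskerin, the pseudouridine synthase of box H/ACA particles) had 23.2 and 2.62. NOP58 had 18.1 and 5.99, UTP4 13.1 and 5.11, NOP56 11.9 and 3.02, and UTP11 4.28. THUMPD1 had no named peak.

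Of 13 genes that the study itself followed, 7 (53.85%, 29.1 to 76.8) had a peak, beside 21.1% of protein-coding genes. Their 8 peaks had fold enrichments from 5.8 to 18.6. Some of these genes, GLMP among them, were chosen by the study on these samples, so the count is not independent evidence. GLMP, a glycosylated lysosomal membrane protein, had 1 peak of 240 nt with 18.1 on chr1:156292778-156293017, 209.5 nt from its 3′ end. All of its bases also lay under a peak of 24.2 of the unnamed ENSG00000163472 on the opposite strand. UBE2V1, a ubiquitin-conjugating enzyme variant, had 16 over 270 nt, as had the readthrough gene PEDS1-UBE2V1 over nearly the same bases, and COPS4, a subunit of the COP9 signalosome, had 15.4 over 240 nt. MAPK3 (ERK1) had 18.6 and 8.81 and MAP2K2 (MEK2) had 9.34 over 629 nt. NRF1, MAP2K1, CXCL3, CXCL8, CXCL10 and CXCL11 had no named peak.

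In the wider MAP kinase list, 18 of 72 genes (25%, 16.4 to 36.1) had 23 peaks with a median of 11.6 (7.48 to 17.3), and 13 peaks (56.5%) reached 10. MAP2K3, a kinase upstream of p38, had 69.8, MAPK14 (p38 alpha) had 38 and the phosphatase gene DUSP9 had 29.7 and 14.5. MAP3K12 had 21.4 and MAP3K6 had 15.9. Except for MAP2K3, each of these values was shared, together with its p-value, by other peaks. The share of genes with a peak had an interval that held the 21.1% of all protein-coding genes, and so did the share of peaks that reached 10 beside 59.5%.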

How the data were processed

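One ac4C IP library and 1 input library of shNC FaDu cells stand behind the list. According to the submitters' processing notes, cutadapt 2.5, HISAT2 2.1.0, HOMER 4.10.4 and featureCounts 1.6.3 were used with GRCh38, hg38 and GRCm38; the peak caller and its thresholds are not given in the sources used here. The list was assigned to shNC by the prefix it shares with the library titles. The authors deposited, for each peak, its blocks, a fold enrichment (ratio of IP to input), a p-value and a score; log10 p-values and FDR come as deposited log10 scores. A deposited differential table holds the authors' fold changes and p-values, of which only the pairs of identifier and symbol were used, and the knockdown list was not used.

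Of the 4977 identifiers, 1997 were named by that table and 2529 by position in a RefSeq gene (GRCh38.p14, same strand, at least 90% of each peak's span); 451 stayed unnamed. Where both gave a name, 95.2% were the same. A gene of a list counts as having a peak only if the peak carried its name, so peaks of unnamed identifiers are not counted. Named genes are the extremes of fold enrichment, p-value, length, blocks, peaks per gene and chromosome, and members of gene lists. Members and lists were chosen with earlier results of these data known. Values were computed with pandas 2.3.3, numpy 2.4.6 and scipy 1.17.1 under Python 3.11.15, and figures were drawn with matplotlib 3.10.9. The overlap step, tested on 2200 simulated peaks, found 200 of 200 planted overlaps and 0 others. Depth is unknown, so no interval covers counting error. Some members of the lists are not reported here.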

Additional observations from a re-analysis of the deposited data

How the results depend on the processing

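The 9 summaries were recomputed under other choices, giving 60 alternative values, of which 38 stayed within the 95% interval of the reported value. With a fold enrichment of at least 4, the share of genes with 2 or more peaks was 19.6% (22.4% as reported), the median length 211 nt (210) and the median fold enrichment 13.3 (12.4). With an FDR of at most 0.05, peaks of 2 or more blocks made up 25.8% (24.7%), and the medians were 211 nt and 13.4. With an FDR of at most 1e-10, which kept 3031 peaks, these values were 14.6% of genes, 32.5% of peaks, 299 nt and 21, chromosome 19 held 12.1% (10.3%), and peaks of 2 or more blocks were lower than those of 1 block by a median difference of -2.7, against 0.9 as reported. With 1 peak per gene the medians were 211 nt and 14, and 81.3% of peaks lay in the last 20% of the gene (76.1%); in genes with a single peak it was 83.0%. Without peaks overlapping another gene's on the same strand, 23.5% had 2 or more blocks. Chosen after seeing the data, leaving out peaks that share fold enrichment and p-value gave 32.0%, 270 nt, 14.2 and 74.9% in the last 20%, and leaving out overlaps on the opposite strand gave a median of 11.9. The share on the plus strand and the mitochondrial medians kept within those intervals throughout. The cause was not tested. No paired analysis was possible because there is 1 IP library, and the number of reads, and so the precision of single peaks, is unknown.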
